A study of Mus musculus with 5 samples.

Results

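The MHC class I antigen presentation genes H2-K1, H2-D1, H2-T23, B2m, Tap1, Tap2, Tapbp, Psmb8, Psmb9 and Nlrc5 were followed by symbol through the RNA-seq tables of cells freshly sorted from mouse pancreas. All 10 symbols were found among the 16992 common to the 5 tables, and all 10 were among the 11769 that were tested. The series compared CD133(high)CD71(low) cells (3 libraries) with CD133(positive)CD71(negative) cells (2 libraries), both from C57BL/6 mice 2 to 4 months of age, with no treatment or engineered allele given. The gene of the surface glycoprotein CD133 is Prom1, and that of CD71, the receptor through which cells take up iron-bound transferrin, is Tfrc. Both populations are sort gates on these proteins and may each hold several cell types. Separate mice, pooled mice or separate sorts are not told apart in the labels, so the p-values rest on the spread between these libraries alone, and part of that spread may be technical.

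MHC class I molecules display peptides from inside the cell to CD8 T cells and natural killer cells. Proteasomes cut proteins into peptides, the TAP transporter moves the peptides into the endoplasmic reticulum, tapasin helps to load them onto a heavy chain paired with beta-2-microglobulin, and the complex travels to the surface. Nearly all nucleated cells carry the pathway, so leukocytes, endothelium and epithelium of the pancreas all express these genes, usually at a higher level in leukocytes and endothelium, and interferons raise most of them together.

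Library depth, read from the steps between low values, was 31.8, 30.6 and 41.7 M reads in the CD133(high)CD71(low) libraries and 25.5 and 19.7 M in the CD133(positive)CD71(negative) libraries. The CD133(high)CD71(low) library with no number in its title is called library 3. Its table uses other gene models. Its log2 values correlated across genes with those of libraries 1 and 2 at a Pearson r of 0.911 and 0.920, against 0.994 between libraries 1 and 2. Libraries 1 and 2 correlated with the CD133(positive)CD71(negative) libraries at 0.918 to 0.933, so they were about as close to that group as to library 3. Library 3 correlated with the CD133(positive)CD71(negative) libraries at 0.806 and 0.818. Results are therefore also given without library 3 where that changes them. Prom1 stood at 72.8, 74.7 and 133 RPKM (read number divided by transcript length in kilobases and by library depth) in CD133(high)CD71(low) libraries 1 to 3, against 45.8 and 48.8 RPKM in CD133(positive)CD71(negative) libraries. Tfrc stood at 5.34, 6.84 and 12.2 RPKM in CD133(high)CD71(low) libraries, against 4.00 and 4.36 RPKM in CD133(positive)CD71(negative) libraries. Both sort genes were higher in every CD133(high)CD71(low) library, but so were 6848 of the 11769 tested symbols. Neither sort gene passed the test described below (limma adjusted p = 0.0909 and 0.151). Without library 3 both were called higher (log2 differences of 0.63 and 0.45, limma adjusted p = 0.0002 and 0.0112), as were 40.9% of all tested symbols.

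Upstream sequences are shown first, because class I heavy chain genes and B2m are switched on through short promoter elements that they share. As background, a kappa B element is bound by NF-kappa B, an interferon response element by interferon regulatory factors, and a CRE core (TGACG) followed by a reversed CCAAT box (ATTGG) forms part of the module through which the NLRC5 regulator acts with RFX, CREB-family and NF-Y proteins. The windows are the 250 bases before the RefSeq transcript start (GRCm38.p6), 5′ to 3′ on the strand of the gene, at chr17:34000348-34000597 (minus strand) for H2-K1, chr17:35262844-35263093 (plus strand) for H2-D1 and chr2:122147437-122147686 (plus strand) for B2m. Capitals mark GGGGATTCC (kappa B), GAANNGAAA or GAAANNGAA on either strand (interferon response core), and the pair TGACG and ATTGG.
H2-K1: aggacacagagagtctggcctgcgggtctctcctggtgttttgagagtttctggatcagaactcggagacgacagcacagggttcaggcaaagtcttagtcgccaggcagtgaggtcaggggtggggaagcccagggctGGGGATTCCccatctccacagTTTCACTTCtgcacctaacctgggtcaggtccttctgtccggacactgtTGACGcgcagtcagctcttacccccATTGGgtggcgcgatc
H2-D1: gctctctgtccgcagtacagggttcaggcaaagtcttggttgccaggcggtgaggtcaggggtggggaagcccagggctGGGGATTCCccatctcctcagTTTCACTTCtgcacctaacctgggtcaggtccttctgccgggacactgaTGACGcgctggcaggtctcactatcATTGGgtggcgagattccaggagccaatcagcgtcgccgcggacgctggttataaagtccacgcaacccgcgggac
B2m: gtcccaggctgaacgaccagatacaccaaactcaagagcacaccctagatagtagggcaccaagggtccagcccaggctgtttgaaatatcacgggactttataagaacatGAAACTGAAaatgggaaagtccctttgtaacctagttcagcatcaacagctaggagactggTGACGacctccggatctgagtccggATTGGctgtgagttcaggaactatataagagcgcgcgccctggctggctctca
In all of these 3 windows the TGACG and the ATTGG lay 20 bases apart, at -41 to -12 from the start in H2-K1, -101 to -72 in H2-D1 and -78 to -49 in B2m. Of 32851 RefSeq mouse windows of the same length, 125 (0.381%) held such a pair with 15 to 25 bases between its parts on either strand. This spacing was searched for after these windows had been read. The H2-K1 and H2-D1 windows aligned over 177 bases with 161 identical (91.0%), and they alone of the 8 windows at hand for the class I genes held GGGGATTCC, which 70 windows (0.213%) held genome-wide. The interferon core was in H2-K1, H2-D1, H2-T23 and B2m and in 12.5% of all windows. RefSeq lists 2 starts for H2-K1, and the one at 34000347 was used.

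Tap1 and Psmb9 are divergent neighbours, and the stretch between their RefSeq starts, 225 bases at chr17:34187331-34187555, is printed on the plus strand, with Psmb9 to its left and Tap1 to its right. Capitals mark CCAAT and TGACG, which 33.8% and 17.8% of all windows held on either strand.
Psmb9 to Tap1: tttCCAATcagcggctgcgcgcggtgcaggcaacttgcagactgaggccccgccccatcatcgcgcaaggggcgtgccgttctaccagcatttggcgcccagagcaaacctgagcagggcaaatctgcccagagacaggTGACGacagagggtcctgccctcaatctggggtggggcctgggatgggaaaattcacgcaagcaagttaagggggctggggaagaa
The tapasin gene Tapbp held 2 CCAAT boxes in its window and none of the other motifs, and Psmb8 held none of the motifs searched. A match of letters is a description of the window and not a bound site. Of the 73 tested genes whose window held the spaced pair, 6 were called lower and 3 higher in CD133(high)CD71(low) cells by the test described next, with a median log2 fold change of 0.29. These counts are near the 7.22% lower and 6.25% higher of all tested symbols, and the 6 include B2m and H2-D1, from whose windows the spacing was read.

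**Figure D1:**
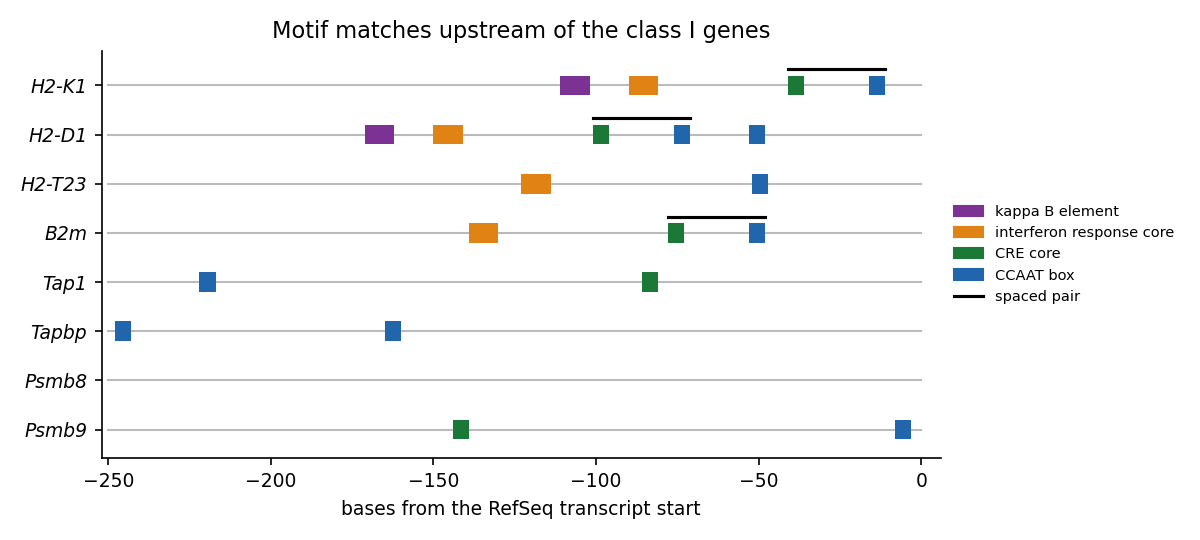
Motif matches in the 250 bases before the RefSeq start of 8 class I genes, with bases from the start on the horizontal axis and 1 row per gene. Colours mark the motif searched and the black bar marks the TGACG and ATTGG pair, which H2-K1, H2-D1 and B2m hold with 20 bases between its parts.

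Of the 10 class I genes, 6 were lower in CD133(high)CD71(low) cells than in CD133(positive)CD71(negative) cells, none was higher and 4 did not pass the test. The 6 were B2m, H2-D1, Tap1, Psmb8, Psmb9 and Nlrc5, and the mean levels in CD133(high)CD71(low) cells were between 0.144 times (Nlrc5) and 0.580 times (H2-D1) those in CD133(positive)CD71(negative) cells. The test was limma on log2(RPKM + 1) over all 11769 symbols, with a Benjamini-Hochberg adjusted p under 0.05. It called 7.22% of all tested symbols lower and 6.25% higher. The median log2 fold change was -0.80 over the class I genes and 0.31 over all tested symbols. Relative to that shift of all symbols the changes ran from -0.31 (Tapbp) to -1.67 (Nlrc5). In 9 of the 10 genes every CD133(high)CD71(low) library was below both CD133(positive)CD71(negative) libraries, as in 12.0% of all tested symbols. Nlrc5 passed the filter on low values (a mean of at least 1 RPKM) only through the CD133(positive)CD71(negative) group, so its difference was partly set by that filter. In bulk libraries of sorted cells, fewer cells that express a gene and less of its RNA per cell cannot be told apart.

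**Figure D2:**
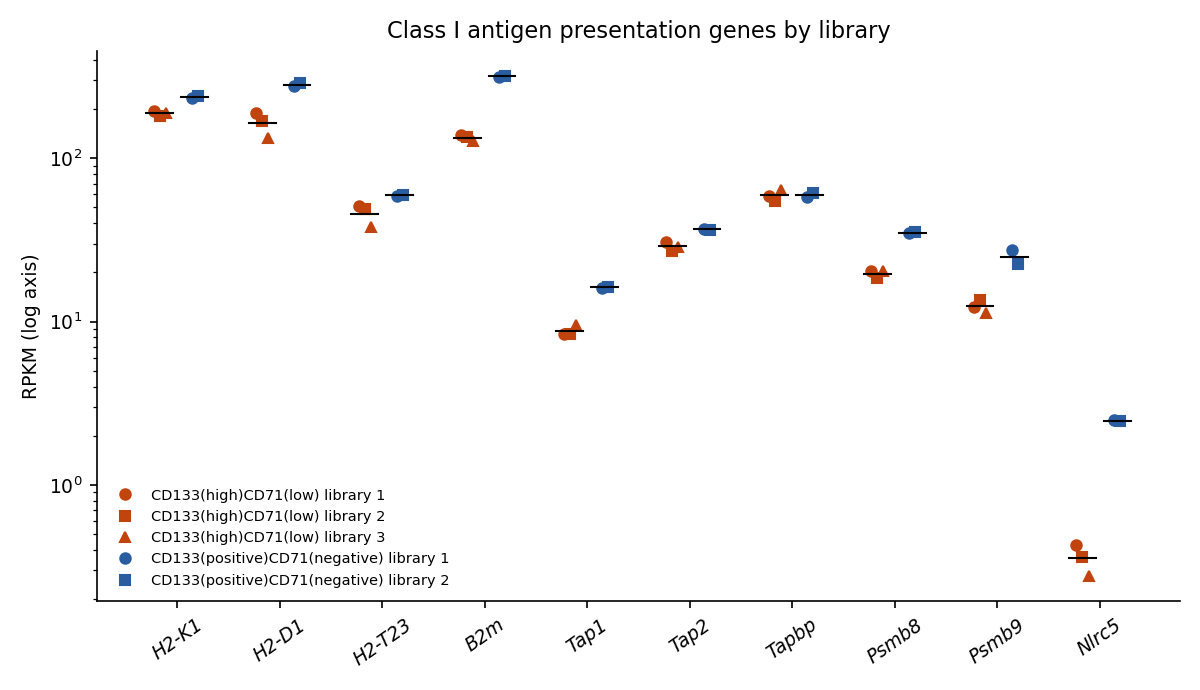
RPKM of the 10 class I genes in each library on a log axis, with CD133(high)CD71(low) libraries (orange) left of CD133(positive)CD71(negative) libraries (blue) and a bar at each group mean. The groups overlap for Tapbp alone, and Nlrc5 shows the widest gap, 0.358 against 2.48 RPKM.

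The heavy chains H2-K1 and H2-D1 encode the classical class I molecules H-2K and H-2D, which present peptides to CD8 T cells. H2-K1 (chromosome 17, 33996017-34000347, minus strand, mm10) measured 194, 182 and 189 RPKM in CD133(high)CD71(low) libraries 1 to 3, against 234 and 240.4 RPKM in CD133(positive)CD71(negative) libraries 1 and 2. The CD133(high)CD71(low) libraries were all lower, with no overlap, but the log2 difference of -0.33 (SE 0.12, 95% interval -0.64 to -0.03) had a limma adjusted p of 0.115 and did not pass. H2-D1 (chromosome 17, 35262730-35267499, plus strand) measured 189.6, 168 and 132 RPKM in CD133(high)CD71(low) libraries, against 276 and 287 RPKM in CD133(positive)CD71(negative) libraries. Library 3 was the lowest and the groups did not overlap. H2-D1 was lower, with a log2 difference of -0.80 (SE 0.19, limma adjusted p = 0.0488), just inside the threshold, and did not pass after median-of-ratios scaling (-1.09, limma adjusted p = 0.0635).

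H2-T23 encodes the heavy chain of Qa-1, a nonclassical molecule that shows leader peptides of other class I chains to the CD94/NKG2A receptor. H2-T23 (chromosome 17, 36029773-36032855, minus strand) measured 50.6, 49.2 and 37.7 RPKM in CD133(high)CD71(low) libraries, against 58.9 and 59.6 RPKM in CD133(positive)CD71(negative) libraries. The groups did not overlap, with library 3 again the lowest, and the log2 difference of -0.38 (95% interval -0.78 to 0.03) had a limma adjusted p of 0.155. Without library 3 all of these heavy chains passed the threshold, at log2 differences of -0.34 for H2-K1, -0.65 for H2-D1 and -0.24 for H2-T23 (limma adjusted p = 0.0062, 0.0002 and 0.0256). Heavy chain genes resemble each other: 8.79% of the 50-base words of the H2-K1 transcript, 14.3% of those of H2-D1 and 28.8% of those of H2-T23 occur in other annotated genes, so the authors' counting could have moved reads among them. The annotated antisense gene A930015D03Rik covers the whole of H2-T23, and was listed at 0.0535 to 2.34 RPKM in CD133(high)CD71(low) libraries and 1.45 and 1.61 RPKM in CD133(positive)CD71(negative) libraries. The labels do not say that counting used strand.

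B2m encodes beta-2-microglobulin, the light chain that every class I heavy chain needs to fold and reach the surface. B2m (chromosome 2, 122147686-122153083, plus strand) measured 138, 135 and 127 RPKM in CD133(high)CD71(low) libraries, against 314 and 319.8 RPKM in CD133(positive)CD71(negative) libraries. The libraries of each group lay close together and the groups were far apart. B2m averaged 134 ± 5.58 RPKM (SD, n = 3) in CD133(high)CD71(low) cells and 317 ± 3.84 RPKM (SD, n = 2) in CD133(positive)CD71(negative) cells, with a log2 difference of -1.24 (SE 0.12, 95% interval -1.55 to -0.94, limma adjusted p = 0.00359). It was therefore lower by a wider margin than any of the 3 heavy chains. None of its 50-base words occurs in another annotated gene, although the gene Patl2 is annotated on the opposite strand over its whole length.

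The ratio of each heavy chain to B2m within a library does not depend on how that library was scaled. H2-K1 over B2m was 1.40, 1.34 and 1.48 in CD133(high)CD71(low) libraries, against 0.745 and 0.752 in CD133(positive)CD71(negative) libraries. H2-D1 over B2m was 1.37, 1.25 and 1.04 in CD133(high)CD71(low) libraries, against 0.879 and 0.897 in CD133(positive)CD71(negative) libraries. H2-T23 over B2m was 0.367, 0.364 and 0.296 in CD133(high)CD71(low) libraries, against 0.187 and 0.186 in CD133(positive)CD71(negative) libraries. All of these ratios were higher in every CD133(high)CD71(low) library, by 0.91, 0.45 and 0.87 on the log2 scale against pooled SDs of 0.06, 0.17 and 0.14. The exact two-sided permutation p was 0.2 for each, the smallest that 3 libraries against 2 allow (0.229 after Benjamini-Hochberg adjustment over the 8 ratios computed). The summed level of the 3 heavy chains was 434, 399 and 358 RPKM in CD133(high)CD71(low) libraries, against 569 and 587 RPKM in CD133(positive)CD71(negative) libraries, and its ratio to B2m, looked at after the single ratios were known, was 3.14, 2.95 and 2.81 against 1.81 and 1.84.

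The order of the genes by level, which RPKM allows since it is per length, differed at the top. In CD133(high)CD71(low) cells it was H2-K1 (188 ± 5.91 RPKM, SD, n = 3), H2-D1 (163 ± 29.1) and B2m (134 ± 5.58), with H2-D1 overlapping both neighbours. In CD133(positive)CD71(negative) cells it was B2m (317 ± 3.84 RPKM, SD, n = 2), H2-D1 (282 ± 7.47) and H2-K1 (237 ± 4.33), with no overlap between neighbours. Below these the order was the same in both groups: Tapbp, H2-T23, Tap2, Psmb8, Psmb9, Tap1 and Nlrc5. Tapbp and H2-T23 overlapped in CD133(positive)CD71(negative) libraries and not in CD133(high)CD71(low) libraries. H2-K1, H2-D1 and B2m each lay above at least 98.7% of tested symbols by mean level over the 5 libraries.

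TAP1 and TAP2 form the heterodimer that pumps peptides into the endoplasmic reticulum. Tap1 (chromosome 17, 34187553-34197225, plus strand) measured 8.38, 8.43 and 9.47 RPKM in CD133(high)CD71(low) libraries, against 16.0 and 16.3 RPKM in CD133(positive)CD71(negative) libraries. It was lower in every CD133(high)CD71(low) library, with a log2 difference of -0.82 (SE 0.12, limma adjusted p = 0.0121). Tap2 (chromosome 17, 34203527-34216321, plus strand) measured 30.9, 27.1 and 28.7 RPKM in CD133(high)CD71(low) libraries, against 36.7 and 36.6 RPKM in CD133(positive)CD71(negative) libraries. These groups did not overlap either, but the log2 difference of -0.34 (SE 0.11, 95% interval -0.62 to -0.05) had a limma adjusted p of 0.104, and of 0.0127 without library 3. The ratio of Tap1 to Tap2 was 0.271, 0.311 and 0.330 in CD133(high)CD71(low) libraries, against 0.437 and 0.446 in CD133(positive)CD71(negative) libraries, lower in every CD133(high)CD71(low) library (log2 difference -0.54, pooled SD 0.12, exact permutation p = 0.2).

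Tapasin, encoded by Tapbp, bridges TAP to the empty heavy chain. Tapbp (chromosome 17, 33915899-33929292, plus strand) measured 58.7, 55.0 and 63.9 RPKM in CD133(high)CD71(low) libraries, against 57.7 and 60.8 RPKM in CD133(positive)CD71(negative) libraries. It was the one class I gene whose groups overlapped. The log2 difference was -0.00 with a 95% interval of -0.31 to 0.30 (limma adjusted p = 0.981), and it was -0.30 after median-of-ratios scaling (limma adjusted p = 0.153). Zbtb22, on the same strand, overlaps Tapbp over 3422 bases and measured 12.8 to 15.3 RPKM in CD133(high)CD71(low) libraries and 10.12 and 11.6 RPKM in CD133(positive)CD71(negative) libraries.

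Psmb8 and Psmb9 encode LMP7 and LMP2, immunoproteasome subunits that take the places of the constitutive subunits encoded by Psmb5 and Psmb6. Psmb8 (chromosome 17, 34197721-34201454, plus strand) measured 20.3, 18.4 and 20.3 RPKM in CD133(high)CD71(low) libraries, against 34.9 and 35.2 RPKM in CD133(positive)CD71(negative) libraries. Psmb9 (chromosome 17, 34181987-34187764, minus strand) measured 12.3, 13.6 and 11.3 RPKM in CD133(high)CD71(low) libraries, against 27.5 and 22.5 RPKM in CD133(positive)CD71(negative) libraries. Neither gene overlapped between groups. Psmb8 was lower with a log2 difference of -0.80 (SE 0.11, limma adjusted p = 0.0107) and Psmb9 with one of -0.95 (SE 0.15, limma adjusted p = 0.0149). The GENCODE models of Psmb9 and Tap1 overlap by 212 bases on opposite strands, so some reads near their starts could count for either.

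The constitutive partners were not called lower. Psmb5 averaged 55.3 ± 1.11 RPKM (SD, n = 3) in CD133(high)CD71(low) cells and 44.5 ± 3.63 RPKM (SD, n = 2) in CD133(positive)CD71(negative) cells, with a limma adjusted p of 0.119. Psmb6 averaged 64.9 ± 12.7 RPKM in CD133(high)CD71(low) cells and 45.0 ± 4.16 RPKM in CD133(positive)CD71(negative) cells, with a limma adjusted p of 0.120. Without library 3 both were called higher (limma adjusted p = 0.0113 and 0.00976), as were 40.9% of all tested symbols. After median-of-ratios scaling of those 4 libraries neither Psmb5 nor Psmb6 was called (log2 differences of 0.14 and 0.16). Within a library, Psmb8 over Psmb5 was 0.363, 0.329 and 0.375 in CD133(high)CD71(low) cells, against 0.832 and 0.749 in CD133(positive)CD71(negative) cells. Psmb9 over Psmb6 was 0.209, 0.241 and 0.142 in CD133(high)CD71(low) cells, against 0.653 and 0.468 in CD133(positive)CD71(negative) cells. Both ratios were lower in every CD133(high)CD71(low) library, with log2 differences of -1.15 (pooled SD 0.10) and -1.52 (pooled SD 0.38) and an exact permutation p of 0.2 each.

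The third immunoproteasome subunit, MECL-1, is encoded by Psmb10 and replaces the product of Psmb7. Psmb10 measured 39.9, 41.9 and 25.5 RPKM in CD133(high)CD71(low) libraries, against 41.99 and 45.6 RPKM in CD133(positive)CD71(negative) libraries. Libraries 1 and 2 of CD133(high)CD71(low) lay just below the other group and library 3 well below, and the log2 difference of -0.32 had a limma adjusted p of 0.329. Psmb10 over Psmb7 was 1.17, 1.18 and 0.596 in CD133(high)CD71(low) libraries, against 1.28 and 1.44 in CD133(positive)CD71(negative) libraries (log2 difference -0.53, pooled SD 0.47), and -0.21 without library 3. Psmb8 over Psmb9 overlapped between the groups (1.65, 1.36 and 1.80 in CD133(high)CD71(low) libraries, 1.27 and 1.57 in CD133(positive)CD71(negative) libraries, exact permutation p = 0.4).

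**Figure D3:**
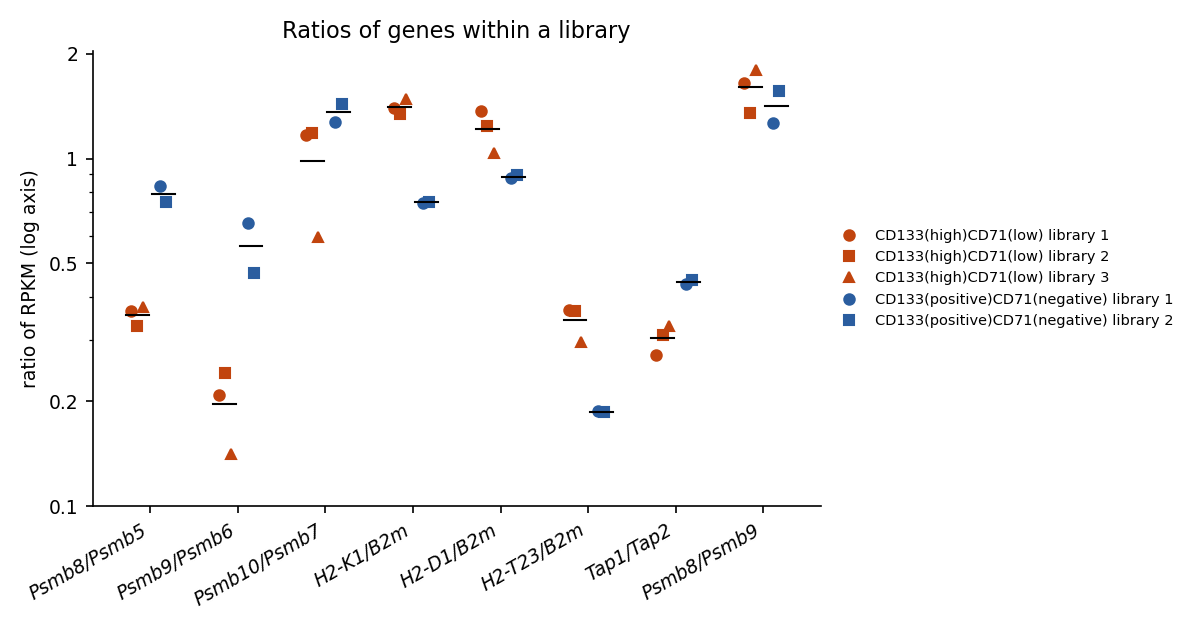
Ratios of RPKM within a library on a log axis, with CD133(high)CD71(low) libraries (orange) left of CD133(positive)CD71(negative) libraries (blue) and a bar at each group mean. The immunoproteasome ratios Psmb8/Psmb5 and Psmb9/Psmb6 and the Tap1/Tap2 ratio are lower in all CD133(high)CD71(low) libraries, the heavy chain to B2m ratios are higher, and Psmb8/Psmb9 overlaps.

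NLRC5 is the transactivator of class I genes, abundant in lymphocytes and induced by interferon gamma. Nlrc5 (chromosome 8, 94434356-94527272, plus strand) measured 0.432, 0.364 and 0.278 RPKM in CD133(high)CD71(low) libraries, against 2.51 and 2.45 RPKM in CD133(positive)CD71(negative) libraries. The groups were far apart at low levels in both. Over a transcript of 7.58 kilobases the values correspond to about 104, 84 and 88 reads in CD133(high)CD71(low) libraries, against 484 and 365 reads in CD133(positive)CD71(negative) libraries. The CD133(high)CD71(low) mean was 0.144 times the other, and the log2 difference was -1.36 with a pseudocount of 1 (SE 0.11, limma adjusted p = 0.0019) and -2.51 with a pseudocount of 0.1, since a pseudocount of 1 compresses values this low.

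**Figure D4:**
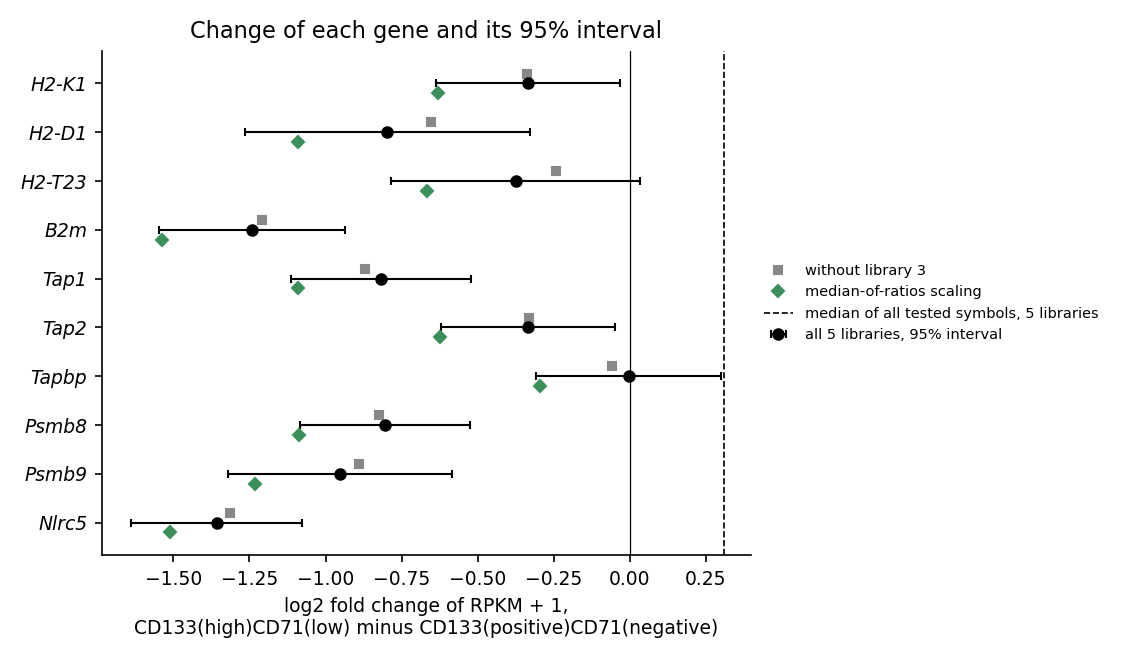
Log2 fold change of RPKM + 1 for each class I gene, as CD133(high)CD71(low) over CD133(positive)CD71(negative), with all 5 libraries (black, bars are 95% intervals), without library 3 (grey) and with median-of-ratios scaling (green). The dashed line is the median of all tested symbols, 0.31, and scaling moves every gene to the left, including Tapbp, which lies at zero with all 5 libraries.

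The calls rested on few libraries. Leaving out library 3 of CD133(high)CD71(low) brought 9 of the 10 genes past the threshold, all but Tapbp, beside 12.2% of all tested symbols called lower and 40.9% called higher. Without CD133(high)CD71(low) library 1 limma left B2m, Psmb8 and Nlrc5 called, beside 784 of all 11818 tested symbols called lower. Without library 2 it left B2m and Nlrc5, beside 561 of 11819. Without CD133(positive)CD71(negative) library 1 the median log2 fold change over the 9 class I genes still tested was -0.81, against 0.27 over all tested symbols. Without CD133(positive)CD71(negative) library 2 these medians were -0.77 and 0.35. The lone library of that group was then assumed to vary like the others, so no call can rest on these 2 fits. Nlrc5 fell under the filter in both. Median-of-ratios scaling left 5 of the 10 called, all but H2-D1, beside 9.25% of all symbols called lower, and moved the median of all symbols from 0.31 to 0.06.

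Markers of several other cell types were also lower in CD133(high)CD71(low) cells. The summed level of the 10 class I genes was 703, 658 and 619 RPKM in CD133(high)CD71(low) libraries, against 1059 and 1080.5 RPKM in CD133(positive)CD71(negative) libraries, 0.617 times on average. The summed level of 27 leukocyte markers was 56.8, 48.6 and 36.9 RPKM in CD133(high)CD71(low) libraries, against 800.1 and 752 RPKM in CD133(positive)CD71(negative) libraries. Of the 22 tested, 21 were called lower, beside 7.22% of all tested symbols. Of these 21, 11 averaged under 1 RPKM in CD133(high)CD71(low) cells and passed the filter only through the other group, so their calls were partly set by it. Ptprc (CD45), carried by nearly all leukocytes, measured 0.477, 0.417 and 0.291 RPKM in CD133(high)CD71(low) libraries, against 9.76 and 10.3 RPKM in CD133(positive)CD71(negative) libraries. In the CD133(high)CD71(low) libraries 13 of these markers stayed below 1 RPKM throughout, though none was at 0 in any of them.

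The 20 endothelial markers summed to 339.8, 222 and 151 RPKM in CD133(high)CD71(low) libraries, against 1152 and 1076 RPKM in CD133(positive)CD71(negative) libraries, with 19 called lower. For this list and those below, the share of all tested symbols called lower was 7.22%. Pecam1 (CD31) measured 25.5, 15.1 and 9.17 RPKM in CD133(high)CD71(low) libraries, against 99.7 and 88.6 RPKM in CD133(positive)CD71(negative) libraries. The 15 mesenchymal markers summed to 86.4, 81.0 and 78.0 RPKM in CD133(high)CD71(low) libraries, against 252 and 229 RPKM in CD133(positive)CD71(negative) libraries, with 9 of 12 tested called lower, 5 of these having passed the filter only through CD133(positive)CD71(negative) cells. Most of each sum was Vim, at 59.9, 57.7 and 70.2 RPKM against 142 and 126 RPKM. The sum therefore hides lower values in library 3, as for Col3a1, at 2.90, 3.04 and 0.386 RPKM against 13.9 and 12.5 RPKM. No endothelial or mesenchymal marker was at 0 in any CD133(high)CD71(low) library. The duct markers moved the other way, with 15 of 20 called higher in CD133(high)CD71(low) cells, 18 without library 3 and 7 after median-of-ratios scaling. Of all tested symbols, 6.25% were called higher, and 40.9% without library 3. Krt19, a duct keratin, measured 156, 142 and 149 RPKM in CD133(high)CD71(low) libraries, against 74.6 and 81.4 RPKM in CD133(positive)CD71(negative) libraries (limma adjusted p = 0.0089). Of 11 islet markers tested, 6 were called lower, among them Sst (somatostatin), at 107, 131 and 57.8 RPKM in CD133(high)CD71(low) libraries, against 482 and 615 RPKM in CD133(positive)CD71(negative) libraries. The 24 acinar markers gave no limma call in either direction, with 0 at an unadjusted p under 0.05. Of these, 17 were lower with no overlap between groups, as were 12.0% of all tested symbols. Without library 3, 6 of the 24 were called lower and 0 higher, beside 12.2% and 40.9% of all tested symbols. The acinar sum was 264954, 266133 and 126901 RPKM in CD133(high)CD71(low) libraries, against 317491 and 284463 RPKM in CD133(positive)CD71(negative) libraries. The part of all these markers' cells in the lower class I levels was not tested.

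MHC class II genes, which serve antigen-presenting leukocytes, were lower by a wider margin. Their summed level was 52.7, 47.9 and 25.3 RPKM in CD133(high)CD71(low) libraries, against 1373 and 1377 RPKM in CD133(positive)CD71(negative) libraries. All 10 tested of 11 were called lower, beside 7.22% of all tested symbols. However, 5 of these 10 passed the filter only through CD133(positive)CD71(negative) cells. The class II sum was 0.0305 times as high in CD133(high)CD71(low) cells and the leukocyte marker sum 0.0612 times, compared with 0.421 times for B2m, 0.792 times for H2-K1 and 0.144 times for Nlrc5.

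**Figure D5:**
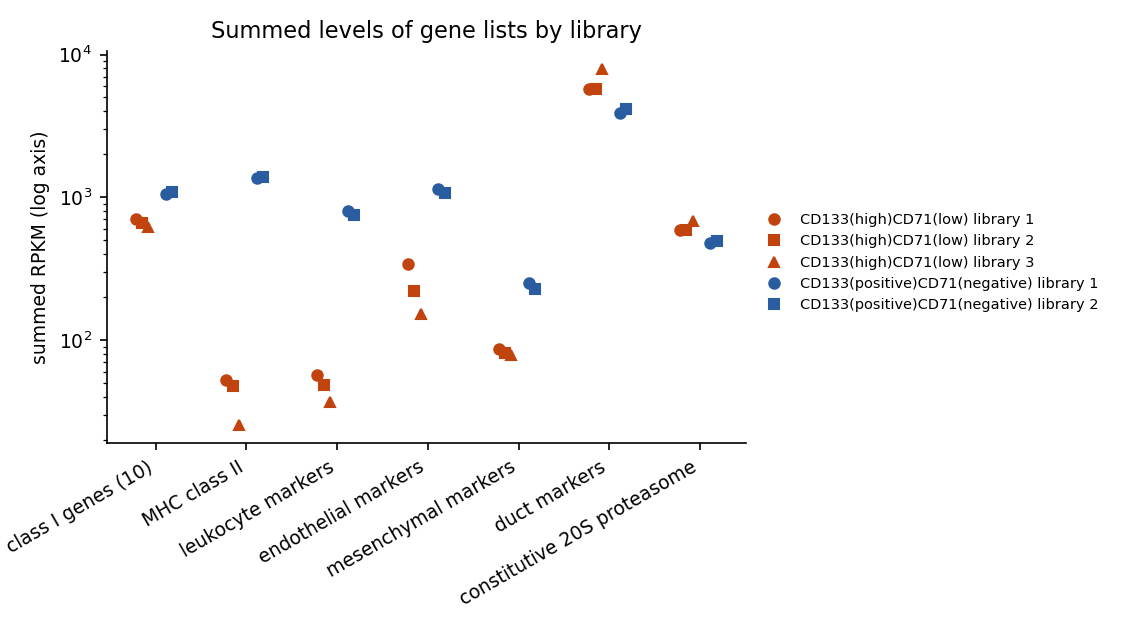
Summed RPKM of gene lists per library on a log axis, with CD133(high)CD71(low) libraries (orange) left of CD133(positive)CD71(negative) libraries (blue). The 10 class I genes are lower in CD133(high)CD71(low) cells by far less than the MHC class II, leukocyte and endothelial lists, while the duct list and the constitutive 20S proteasome list are higher.

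The rest of the class I pathway was read through 7 lists of 99 genes, of which 89 were in all tables and 79 were tested. Limma called 8 of the 79 lower and none higher, with a median log2 fold change of 0.23. Over all 11769 tested symbols it called 7.22% lower and 6.25% higher, with a median of 0.31. At an unadjusted p under 0.05, 1080 of the 11769 were lower and 3235 higher. Of the 15 other class I and class I-like heavy chains tested, 4 were lower and none higher, with 6 lower and 1 higher at an unadjusted p under 0.05. H2-Q7, a Qa-2 antigen gene, measured 2.63, 3.58 and 2.65 RPKM in CD133(high)CD71(low) libraries, against 14.2 and 13.4 RPKM in CD133(positive)CD71(negative) libraries, clearly apart (log2 difference -1.91, limma adjusted p = 0.0018). H2-T24 had a log2 difference of -1.25 (limma adjusted p = 0.0093). H2-M3, which presents formylated peptides, had one of -0.78 (limma adjusted p = 0.0206), and Hfe, a regulator of iron uptake that binds B2m but no peptide, one of -0.74 (limma adjusted p = 0.0219). The median over these 15 was -0.30. Without library 3, 9 of 17 tested were called lower and 3 higher, beside 12.2% and 40.9% of all tested symbols.

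Interferon receptor and STAT pathway genes were the other list with calls, 4 of 13 lower and none higher, with 7 lower and 0 higher at an unadjusted p under 0.05. Of all 11769 tested symbols, 7.22% were called lower, and 1080 were lower at an unadjusted p under 0.05. Irf8, a transcription factor of myeloid and B cells, averaged 0.431 ± 0.0640 RPKM (SD, n = 3) in CD133(high)CD71(low) cells and 8.94 ± 0.321 RPKM (SD, n = 2) in CD133(positive)CD71(negative) cells (limma adjusted p = 0.0004). Irf7, an interferon-induced factor, averaged 6.92 ± 0.638 RPKM in CD133(high)CD71(low) cells and 14.2 ± 1.09 RPKM in CD133(positive)CD71(negative) cells (limma adjusted p = 0.0112). Stat2 and Ifnar2, the signal transducer and a receptor chain of type I interferon, were lower, with log2 differences of -0.56 and -0.50 (limma adjusted p = 0.033 and 0.0498). Irf8 passed the filter on low values only through the CD133(positive)CD71(negative) group, as Nlrc5 did, and Ifnar2 was not called with a pseudocount of 0.1 or a mean of at least 5 (limma adjusted p = 0.05003 and 0.0522). Without library 3, 8 of the 13 were called lower, beside 12.2% of all tested symbols. With median-of-ratios scaling of those 4 libraries 11 of the 13 were, beside 1933 of all 11716 symbols tested.

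Peptide loading, proteasome, peptidase and regulator genes gave no call among the 51 tested. Of 14 constitutive 20S subunits, 6 were higher and 0 lower at an unadjusted p under 0.05, with a median log2 fold change of 0.30, close to that of all symbols. Of all 11769 tested symbols, 3235 were higher and 1080 lower at that level. The peptide-loading list of 11 (median 0.30) had 1 higher and 0 lower at that level, the 7 cytosolic peptidases (median 0.38) 1 and 0, the 4 other inducible proteasome parts (median -0.04) 1 and 0, and the 15 regulators of class I transcription (median 0.31) 3 and 0. Calr, the loading chaperone calreticulin, averaged 213 ± 40.4 RPKM in CD133(high)CD71(low) cells and 162 ± 3.68 RPKM in CD133(positive)CD71(negative) cells (limma adjusted p = 0.189). Psmb4, a constitutive subunit, averaged 80.9 RPKM in CD133(high)CD71(low) cells and 56.8 RPKM in CD133(positive)CD71(negative) cells (limma adjusted p = 0.0724). Psme1, a subunit of the PA28 proteasome activator, averaged 71.0 RPKM in CD133(high)CD71(low) cells and 52.4 RPKM in CD133(positive)CD71(negative) cells (limma adjusted p = 0.108). Calr, Psmb4 and Psme1 were not called, though each had higher values in every CD133(high)CD71(low) library than in either CD133(positive)CD71(negative) library. Values were higher in that way for 6848 of the 11769 tested symbols. Rela, the NF-kappa B subunit that binds the kappa B element, averaged 42.7 RPKM in CD133(high)CD71(low) cells and 33.1 RPKM in CD133(positive)CD71(negative) cells (limma adjusted p = 0.105). Irf1, a factor that drives class I and Tap1 transcription, averaged 21.1 RPKM in CD133(high)CD71(low) cells and 24.1 RPKM in CD133(positive)CD71(negative) cells (limma adjusted p = 0.254). Without library 3, 9 of the 14 constitutive subunits, 5 of the 11 loading genes, 3 of the 7 peptidases, 1 of the 4 inducible parts and 5 of the 15 regulators were called higher, and 1 regulator lower. Over all tested symbols that fit called 40.9% higher and 12.2% lower. Median-of-ratios scaling of the same 4 libraries left 1 constitutive subunit and 1 regulator called higher, with 1 loading gene, 2 inducible parts and 3 regulators called lower. Over all 11716 symbols tested with that scaling, 1782 were called higher and 1933 lower.

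Of the 10 genes, 8 lie within 2.12 Mb of chromosome 17, the mouse major histocompatibility complex, with B2m and Nlrc5 elsewhere. The 70 genes tested there that are no H2 gene and none of the 8 had a median log2 fold change of 0.38, with 7 lower and 5 higher. Of all tested symbols 7.22% were called lower and 6.25% higher. The other 15 H2 genes in the span, class I and class II, had a median of -1.72, with 10 lower and none higher. The only class I genes among the 10 were H2-Q7 and H2-T24, and the rest were class II genes. The class I genes H2-K2, H2-Q2, H2-Q4, H2-Q5 and H2-Q6 were not called, with log2 differences from -1.72 (H2-Q5) to 0.67 (H2-Q2).

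Some genes outside the pathway shared a pattern with class I genes over the 5 libraries, measured as the root mean square distance between log2(RPKM + 1) values centred on each gene's own mean, among 7839 symbols with a mean of at least 5 RPKM. Among the 3 closest to H2-K1 were Nod1 (0.0206) and Npc2 (0.0256). Closest to B2m were Ptprm (0.0504), Tgfbr2 (0.0814) and Fzd4 (0.0829). Closest to Nlrc5 were B2m (0.0611), Alpl (0.0838) and Ptprm (0.0861), a match that depends on the pseudocount: Nlrc5 and B2m had log2 differences of -1.36 and -1.24 with a pseudocount of 1, and of -2.51 and -1.25 with one of 0.1.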

How the data were processed

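The authors deposited a table of values by gene symbol for each library, which were taken to be RPKM from their steps, since the labels name no unit. They used Partek and mm10, per the submitters' processing notes, with aligner, annotation and strand setting not given in the sources used here. Whether the unit is RPKM or FPKM cannot be settled from the values. Among low values, 58.2% to 61.9% came within 0.05 reads of a whole read once multiplied by transcript length (10% by chance), too few to recover counts, so no count test was run. A row of library 3 that names no gene and lists 74.2 M alignments was left out. Groups came from sample titles. No 2 libraries were duplicates (at most 0.0255% of values identical).

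Values as log2(RPKM + 1) with a mean of at least 1 were tested with limma 3.58.1 under R 4.3.3 (moderated by empirical Bayes with a trend, group alone, Benjamini-Hochberg over all tested symbols, threshold 0.05). Such fold changes understate changes of low genes. The scripts were tested on simulated data. Ratios within a library were tested by exact two-sided permutation. Alternatives were leaving out each library, scaling by median of ratios, quantile normalization, a pseudocount of 0.1, no filter or a mean of at least 5, the replicate number as a block, and combinations. Positions are from GENCODE vM21, sequences from RefSeq, and 8 of the 10 class I genes had an upstream window.

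The class I genes, lists, tests and named genes were chosen with earlier results of these data known. Named were all class I genes listed, the anchors Psmb5, Psmb6, Psmb7, Psmb10, Ptprc, Pecam1 and Krt19, up to 4 genes called per direction in each pathway list or else the highest, and the 3 nearest patterns to H2-K1, B2m and Nlrc5, of which 1 is not reported here. Other tools were Python 3.11.15 with pandas 2.3.3, numpy 2.4.6 and, for plots, matplotlib 3.10.9.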

Additional observations from a re-analysis of the deposited data

How the results depend on the processing

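Every alternative that tested a class I gene gave it a negative log2 fold change, except for Tapbp, which ranged from -0.30 to 0.05 and was negative in 11 of 14. B2m was called lower in 12 of 14 alternatives, Nlrc5 in all 11 that tested it, Psmb8 in 11, Psmb9 and Tap1 in 10, H2-D1 in 6, Tap2 in 5, H2-K1 and H2-T23 in 4 and Tapbp in 1. With a mean of at least 5, and without either CD133(positive)CD71(negative) library, Nlrc5 was not tested. Where a mean of at least 1 was required, Nlrc5 passed only through the CD133(positive)CD71(negative) group, so those calls were partly set by that filter. The 4 alternatives that called H2-K1 and H2-T23 all leave library 3 out of the comparison, the replicate block among them. They compare the same 4 libraries and are not separate checks. The count of class I genes called lower was 10 with median-of-ratios scaling and no library 3, and 0 to 9 with 1 library left out. No within-library ratio changed direction.

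Counts over all tested symbols moved more. Lower calls numbered 1729 with no filter, 315 with a mean of at least 5, 1933 with median-of-ratios scaling and no library 3, 1431 in the numbered libraries with all symbols of their own tables, and 154 to 1425 with 1 library left out. Higher calls numbered 312 after median-of-ratios scaling (735 higher and 850 lower as deposited, 312 and 1089 scaled), 396 with acinar genes removed and libraries rescaled, 1782 with scaling and no library 3, 4780 in the numbered libraries, and 0 to 4785 with 1 library left out. In the 7 other pathway lists lower calls numbered 4 with a mean of at least 5, 29 with scaling and no library 3, 22 in the numbered libraries and 1 to 18 with 1 library left out, and higher calls 3, 26 and 0 to 26 under the last 3 of these. The acinar and numbered-table alternatives were chosen after seeing the data. The cause of these shifts was not tested.

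Libraries with the same replicate number showed no shared deviation across genes (correlation of same-numbered deviations -0.02). That cannot show whether they came from the same mice or sort. With the number as a replicate block, 9 class I genes were called lower, as were 1492 of all symbols, with 5325 higher, and 18 of the other pathway genes were lower and 29 higher. Library 3 has no partner under the block, so that fit compares the other 4 libraries.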

Other observations

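H2-L, H2-Q8, H2-Q9, H2-T9 and H2-T3, further class I heavy chain symbols, were in the tables of the 4 numbered libraries and are given for those libraries alone, chosen after their values were seen. H2-Q9 measured 2.24 and 1.21 RPKM in CD133(high)CD71(low) libraries, against 7.05 and 6.20 RPKM in CD133(positive)CD71(negative) libraries (log2 difference -1.51, limma adjusted p = 0.0001). H2-Q8 measured 6.10 and 3.38 RPKM in CD133(high)CD71(low) libraries, against 18.6 and 11.3 RPKM in CD133(positive)CD71(negative) libraries (-1.47, limma adjusted p = 0.0014). H2-T9 and H2-L had log2 differences of -0.49 and -0.33 (limma adjusted p = 0.0058 and 0.0224). H2-T3, known from the intestinal epithelium of mice, did not exceed 0.0744 RPKM in any of the 4 libraries. These genes are near copies of one another, so the division of reads among them is uncertain.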
